A study of Homo sapiens with 6 samples.

Results

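Carbonic anhydrases are zinc enzymes that convert carbon dioxide and water into bicarbonate and a proton. The family members differ in where they work: CA2, CA3 and CA13 lie in the cytosol, CA5B in mitochondria, and CA4, CA9, CA12 and CA14 at the cell membrane with the catalytic domain outside the cell. CA8 and CA11 are related proteins that lack the enzyme activity. In the kidney, the organ from which the HEK293 line was derived, cytosolic and membrane forms act together in acid secretion and bicarbonate recovery.

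The 10 genes described here (CA2, CA3, CA4, CA5B, CA8, CA9, CA11, CA12, CA13 and CA14) were chosen by family, after the lower CA2 value in the TRIM71 line had been seen. The annotation table paired 9 of them with a probeset, 1 each, out of 18404 genes with a probeset of their own. CA9 was not analysed here, since no probeset was named for it. Because the comparison that chose the family is the only contrast of the series, the values of the members are given as a description and no p-value is printed for them.

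RNA was measured on 6 Affymetrix arrays, 3 for each of 2 groups. The parental group was HEK293 Flp-In, labelled wild-type, a human embryonic kidney line with a recombination site for a transgene. The other group was the same line made to express TRIM71, an RNA-binding protein, constitutively and with a FLAG-HA tag, and hygromycin B was named in the medium for this line alone. The effect of TRIM71 therefore cannot be told apart from that of the drug or of anything else in which the lines differ, and no control line with an empty transgene or another clone was among the 6 arrays. The labels speak of triplicates without saying whether cultures were separate, so all errors measure the spread between these arrays and this spread may be technical.

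Levels are log2 expression, normalized across arrays, so a difference of 1 is a doubling. On this scale the TRIM71 probeset stood at 7.40 ± 0.16 (SD, n = 3) in the parental line and at 10.74 ± 0.11 (n = 3) in the line carrying the transgene. The array medians lay between 6.90 and 6.97. A gene was called different where limma, fitted across all 32321 probesets, gave a Benjamini-Hochberg adjusted p under 0.05. A probeset is called dim where its mean over all arrays lay below the median of all probesets (6.94). Brightness also chose the probeset of a gene and enters the marker sums. It is not read as a difference in amount between genes, since each probeset has its own probes.

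The sequences in front of the transcription start were read for the measured members outside the CA2 cluster that the RefSeq promoter table of GRCh38.p14 holds. They show what lies upstream of a member that was higher in the TRIM71 line (CA12), of another membrane form with a higher mean (CA14) and of one with a small difference (CA5B). Each is the 250 bases before the annotated start, 5′ to 3′ on the strand of the gene. Capitals mark the core letters bound by hypoxia-inducible factors (HIF), ACGTG or GCGTG, on either strand. CA12 lies at chr15:63381847-63382096 on the minus strand, CA14 at chr1:150257524-150257773 on the plus strand and CA5B at chrX:15738020-15738269 on the plus strand.
CA12: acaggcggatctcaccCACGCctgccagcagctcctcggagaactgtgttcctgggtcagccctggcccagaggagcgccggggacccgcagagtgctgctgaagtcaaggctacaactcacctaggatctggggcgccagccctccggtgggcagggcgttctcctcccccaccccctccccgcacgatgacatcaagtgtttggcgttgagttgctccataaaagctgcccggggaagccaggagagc
CA14: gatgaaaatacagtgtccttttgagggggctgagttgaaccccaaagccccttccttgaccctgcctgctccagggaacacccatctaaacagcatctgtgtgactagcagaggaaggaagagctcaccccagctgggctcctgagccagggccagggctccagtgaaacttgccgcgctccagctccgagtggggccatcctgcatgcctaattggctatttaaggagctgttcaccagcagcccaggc
CA5B: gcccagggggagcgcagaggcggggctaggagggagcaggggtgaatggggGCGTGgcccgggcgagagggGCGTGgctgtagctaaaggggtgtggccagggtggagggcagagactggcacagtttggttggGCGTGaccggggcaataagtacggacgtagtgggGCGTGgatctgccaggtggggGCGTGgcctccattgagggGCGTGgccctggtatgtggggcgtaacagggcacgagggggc

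The CA12 window held 1 match, 229 bases before the start, the CA14 window held 0, and the CA5B window held 6, the nearest of them 37 bases before the start. Of 35116 windows of the same length in the table, 43.2% held at least 1 match. A match describes letters only, and no binding was measured.

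CA2, the cytosolic enzyme whose loss causes osteopetrosis with renal tubular acidosis, had the largest difference of the 9 measured members. Its log2 expression was 11.39, 11.42 and 11.42 on the parental arrays and 9.52, 9.66 and 9.54 on the TRIM71 arrays. The groups did not overlap, and 1.73 log2 units separated the lowest parental array from the highest TRIM71 array. The means were 11.41 ± 0.02 (SD, n = 3) and 9.58 ± 0.08 (n = 3), a log2 difference of −1.84 (SE 0.05, 95% interval −1.97 to −1.70). CA2 was thus 3.57-fold lower in the TRIM71 line (interval 3.26 to 3.91), at 28.03% of its parental level on the linear scale. By the size of the fall it stood at rank 18 among all genes. This is the value for which the family was chosen.

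**Figure D1:**
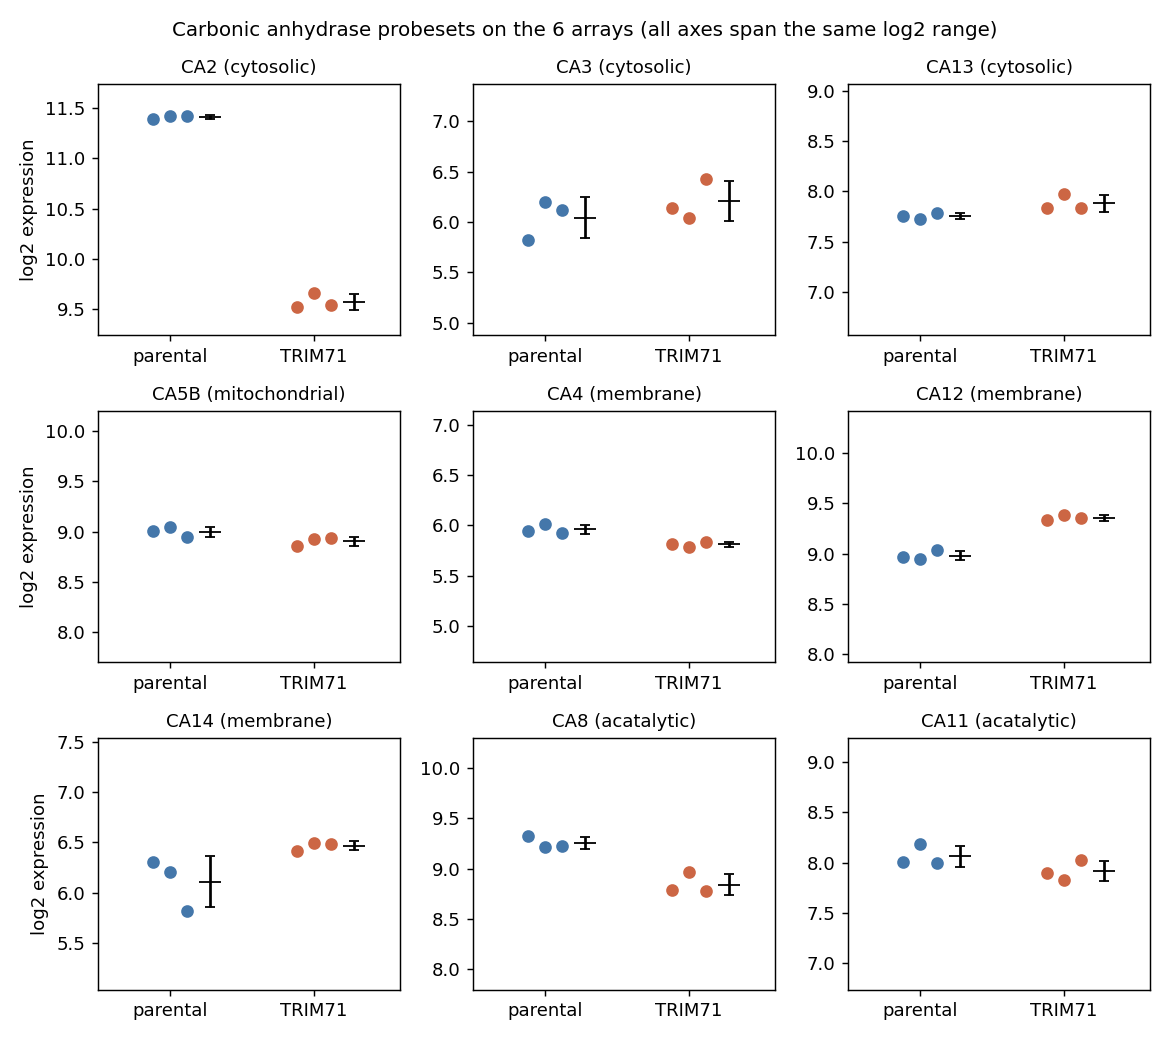
Log2 expression of the 9 measured carbonic anhydrases on the 3 parental (blue) and 3 TRIM71 (orange) arrays, with the mean and SD in black beside the points. All vertical axes span the same log2 range. The CA2 means are 11.41 and 9.58, while those of every other member differ by less than 0.5.

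The other cytosolic enzymes did not show a difference of that size. CA13 had log2 values of 7.76, 7.73 and 7.79 in the parental line and of 7.83, 7.98 and 7.84 in the TRIM71 line. These groups did not overlap, yet the difference was 0.12 (95% interval −0.01 to 0.26) and was not called. It was 0.08 without TRIM71 replicate 2. CA3, a form of low activity known from muscle and fat, read 5.82, 6.20 and 6.12 in the parental line. On the TRIM71 arrays the CA3 probeset read 6.14, 6.04 and 6.43, within and above the parental range, with a difference of 0.16 (interval −0.16 to 0.48). Without parental replicate 1 or TRIM71 replicate 3 the CA3 difference was 0.05. Its mean was below the median of all probesets (6.94), so the CA3 probeset was dim and its interval was among the widest.

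Membrane forms went both ways. CA12, a transmembrane enzyme known as a hypoxia-induced gene, had log2 values of 8.96, 8.95 and 9.03 on the parental arrays and 9.33, 9.38 and 9.35 on the TRIM71 arrays. All TRIM71 arrays lay above all parental arrays, and CA12 was called higher, by 0.37 on the log2 scale (SE 0.05, interval 0.26 to 0.49) or 1.30-fold (interval 1.20 to 1.41). CA14, another transmembrane form found in kidney and brain, differed by a similar amount, 0.36, but with an interval of 0.05 to 0.66, and was not called. The parental CA14 values were 6.30, 6.20 and 5.82 against 6.41, 6.50 and 6.48 in the TRIM71 line, so the groups did not overlap, but parental replicate 3 lay well under the others. Without that array the CA14 difference was 0.21. The probeset of CA4, which is held to the membrane by a lipid anchor, was dim as well. CA4 read 5.95, 6.01 and 5.93 against 5.81, 5.79 and 5.84, lower on every TRIM71 array, by −0.15 on the log2 scale (interval −0.26 to −0.03) and not called.

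The mitochondrial enzyme CA5B, which supplies bicarbonate to carboxylases in that compartment, stayed close to its parental level. Its values were 9.004, 9.04 and 8.94 in the parental line and 8.85, 8.93 and 8.93 in the TRIM71 line. The groups lay side by side without overlap, and the difference of −0.09 (interval −0.22 to 0.03) was not called.

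Of the members without enzyme activity, CA8 was called lower. CA8 binds the inositol trisphosphate receptor ITPR1 and is known from a hereditary cerebellar ataxia. It read 9.33, 9.21 and 9.22 on the parental arrays and 8.79, 8.96 and 8.77 on the TRIM71 arrays, with no overlap. The log2 difference was −0.41 (SE 0.07, interval −0.58 to −0.24), or 1.33-fold lower (interval 1.18 to 1.49). Its interval did not reach that of CA2. CA11, the related protein known from brain, read 8.01, 8.18 and 7.999 against 7.90, 7.83 and 8.02. Here the groups overlapped, and the difference of −0.15 (interval −0.33 to 0.04) was not called. Without parental replicate 2 it was −0.09.

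**Figure D2:**
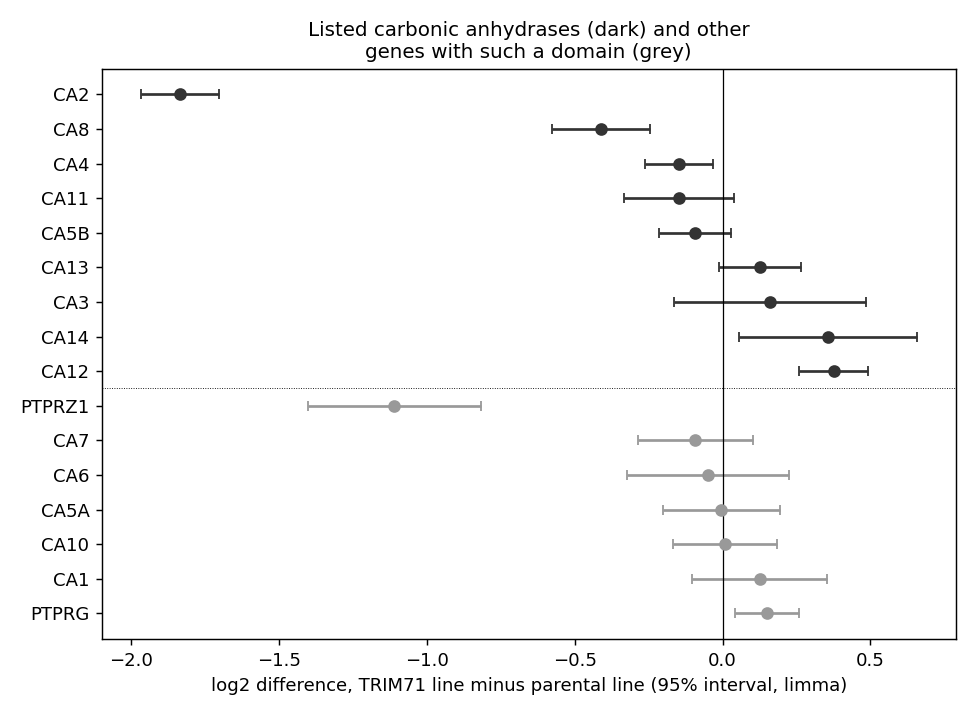
Log2 difference between the TRIM71 and the parental line for the 9 listed carbonic anhydrases (dark) and 7 other genes with such a domain (grey), with 95% intervals from limma. CA2 at −1.84 stands far left of the other members, which lie between −0.41 and 0.37.

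In all, 3 of the 9 measured members were called, which compares with 22.2% of all genes. The 2 lower ones (CA2 and CA8) stand beside 12.2% of genes called lower, and the single higher one (CA12) beside 10.0% called higher. Groups did not overlap for 7 of 9 members, 3 higher and 4 lower, and for 43.6% of all genes. The family genes CA1, CA5A, CA6, CA7 and CA10 are not in these counts, and none of them was called. The contrast chose the family, so nothing is read from these shares. The median log2 difference of the members was −0.09, or 0.02 without CA2, and −0.01 over all genes. Each member had a single probeset, so no second probeset could be set against it, and the probesets of 3 members (CA3, CA4 and CA14) were dim.

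**Figure D3:**
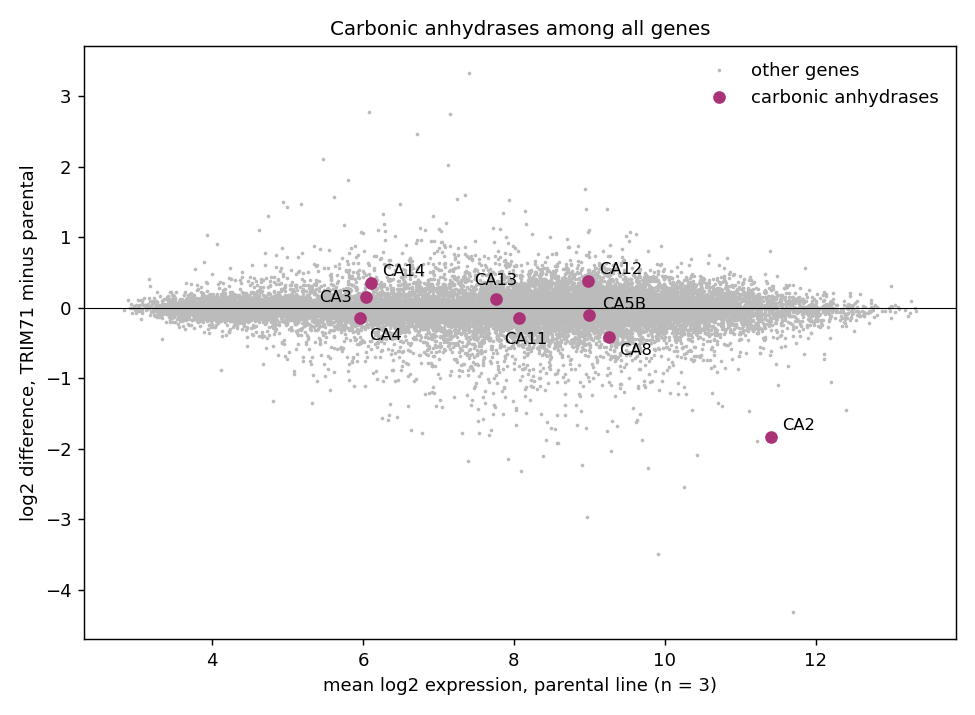
Log2 difference between the lines (vertical) against mean log2 expression in the parental line (horizontal) for all genes, grey, and the 9 measured carbonic anhydrases, purple. CA2, bright in the parental line, lies at −1.84, and the other 8 members lie inside the cloud.

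CA2 shares a stretch of chromosome 8 with CA13, CA1 and CA3, while CA8 lies elsewhere on the same chromosome. By the order of the RefSeq gene table, 5 measured genes on each side of CA2 were taken, of which 8 are not among the listed carbonic anhydrases. Of these 8, 2 rose, 0 fell and 6 did not pass, beside 10.0% of all genes called higher and 12.2% called lower. The next carbonic anhydrase genes, CA3, CA1 and CA13, differed by 0.16, 0.13 and 0.12, opposite in sign to CA2, and none of them was called. CA1, the red cell form, had an adjusted p of 0.45 and a dim probeset at 4.27 ± 0.16 and 4.40 ± 0.10 (n = 3 each). On the other side, the pseudogene REXO1L1P (−0.19, adjusted p = 0.39), the kinase gene PSKH2 (−0.0018, adjusted p = 0.99), the proton pump subunit ATP6V0D2 (−0.13, adjusted p = 0.22) and the transporter SLC7A13 (0.03, adjusted p = 0.73) did not pass.

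The 2 neighbours that rose were the outermost. E2F5, a transcription factor of the cell cycle, read 9.35, 9.28 and 9.11 in the parental line and 10.04, 10.00 and 9.91 in the TRIM71 line (log2 difference 0.74, adjusted p = 0.0021). WWP1, a ubiquitin ligase, rose by 0.19 (adjusted p = 0.034), a call that was lost with any 1 of the 6 arrays left out (adjusted p between 0.066 and 0.12). RBIS, a ribosome biogenesis factor next to E2F5, differed by −0.20 (adjusted p = 0.086). No gene on the stretch besides CA2 was called lower. However, the probesets of CA3, CA1, PSKH2, ATP6V0D2 and SLC7A13 were dim, with parental means of 6.04, 4.27, 5.58, 3.78 and 3.53. A fall of such a probeset may not be seen.

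**Figure D4:**
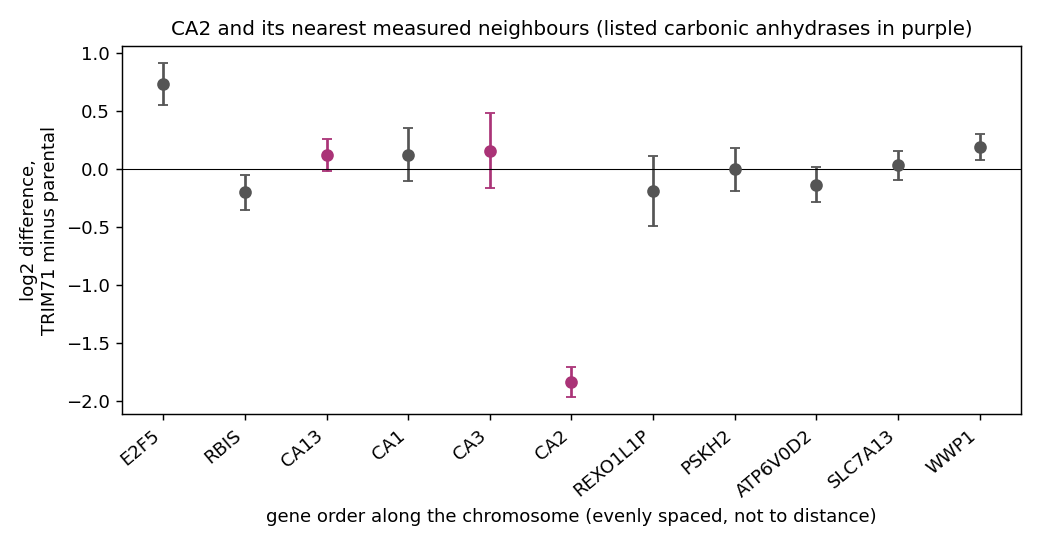
Log2 difference between the TRIM71 and the parental line, with 95% intervals, for CA2 and the 5 nearest measured genes on each side, in gene order and evenly spaced. CA2 lies at −1.84, and its neighbours lie between −0.20 and 0.74.

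The genes whose pattern over the 6 arrays lay nearest to CA2 were found from the root mean square difference of log2 values centred on each gene. RASSF5, a Ras-binding adaptor, was nearest at 0.057, followed by the orphan receptor GPR50 (0.065), the cystine transporter subunit SLC7A11 (0.09), the glycosyltransferase GALNT13 (0.09) and the glycine transporter SLC6A9 (0.10). RASSF5 went from 9.24 ± 0.06 to 7.49 ± 0.09 (n = 3 each) and SLC6A9 from 9.69 ± 0.14 to 7.82 ± 0.11 (n = 3 each). The likeness rests on the step between the 2 groups and describes these arrays only.

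The genes with a carbonic anhydrase domain that were not listed included 7 with a probeset. Of these, 1 fell, 0 rose and 6 did not pass. PTPRZ1, a receptor phosphatase with a carbonic anhydrase-like outer domain, read 6.21, 6.04 and 5.84 in the parental line and 5.10, 4.90 and 4.76 in the TRIM71 line, without overlap. It fell by 1.11 on the log2 scale (adjusted p = 0.0025), although both means were under the median of all probesets. Its relative PTPRG, which is also built with such a domain, differed by 0.15 (adjusted p = 0.074). The enzymes CA5A (−0.0040, adjusted p = 0.98), CA6 (−0.05, adjusted p = 0.83) and CA7 (−0.09, adjusted p = 0.52) and the inactive CA10 (0.01, adjusted p = 0.97) did not pass and were dim on every array.

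Carbonic anhydrases work with transporters that move bicarbonate, protons and lactate. The lists of genes related to the family are the other genes with the domain, acid-base transporters and channels, V-ATPase subunits, bicarbonate-using enzymes, the inositol trisphosphate receptors, and HIF regulators and targets. Over these together, 103 genes that are not members were measured, of which 14 rose, 18 fell and 71 did not pass. Their median log2 difference was −0.04. Over all genes, 10.0% were called higher and 12.2% lower, 22.2% together, and the counts of each list below stand beside these shares. The lists were chosen with earlier results of these arrays known, so nothing is read from the shares. Of 10 bicarbonate transporters of the SLC4 family, 2 rose, 3 fell and 5 did not pass. SLC4A4, the sodium bicarbonate cotransporter known from the proximal tubule, went from 9.30, 9.30 and 9.24 to 8.67, 8.80 and 8.74 (log2 difference −0.54, adjusted p = 0.0016). SLC4A2, a chloride-bicarbonate exchanger, fell by 0.38 (adjusted p = 0.0048). The sodium-driven transporters SLC4A8 (0.54, adjusted p = 0.00999) and SLC4A5 (0.49, adjusted p = 0.012) rose, both with dim probesets. With probesets at or above the median only, 2 SLC4 genes were called. Of 9 anion exchangers of the SLC26 family, SLC26A6 rose (0.38, adjusted p = 0.0088), SLC26A2, the sulfate transporter, fell (−0.39, adjusted p = 0.0093) and 7 did not pass.

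Of 6 measured sodium-proton exchangers, 1 fell, the endosomal SLC9A9 (−0.46, adjusted p = 0.0064), and 5 did not pass. The SLC9A9 probeset was dim. Of 4 measured lactate transporters and ancillary proteins, 2 fell and 0 rose. SLC16A7, a monocarboxylate transporter with a dim probeset, went from 6.51, 6.19 and 6.39 to 4.97, 5.19 and 4.84 (−1.36, adjusted p = 0.0011). BSG, the chaperone of such transporters, went from 11.83 ± 0.01 to 11.53 ± 0.03 (n = 3 each, adjusted p = 0.0064). Among 6 channels of the aquaporin and Rh families, known to pass water and gases, AQP4 fell by 0.81 (adjusted p = 3.3e-04) and 5 did not pass, all 6 being dim.

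Of 20 subunits of the proton-pumping V-ATPase, 2 rose, 1 fell and 17 did not pass. ATP6V0E1 rose by 0.29 (adjusted p = 0.0076). The rise of ATP6V1B2 (0.21, adjusted p = 0.028) and the fall of ATP6V0E2 (−0.21, adjusted p = 0.025) were lost with any 1 array left out, with adjusted p between 0.059 and 0.093 and between 0.051 and 0.089. The ATP6V1B2 call was also lost with arrays centred on their medians.

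Of 9 enzymes that use bicarbonate, 2 rose, 1 fell and 6 did not pass. ACACA, the carboxylase that starts fatty acid synthesis, rose from 9.91 ± 0.07 to 10.44 ± 0.02 (n = 3 each; log2 difference 0.52, adjusted p = 0.0020). MCCC1, a subunit of the leucine-degrading carboxylase, fell by 0.30 (adjusted p = 0.0082). CAD, which begins pyrimidine synthesis, rose by 0.23 (adjusted p = 0.018), but not without parental replicate 2 or 3 or TRIM71 replicate 2 or 3 (adjusted p up to 0.065).

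**Figure D5:**
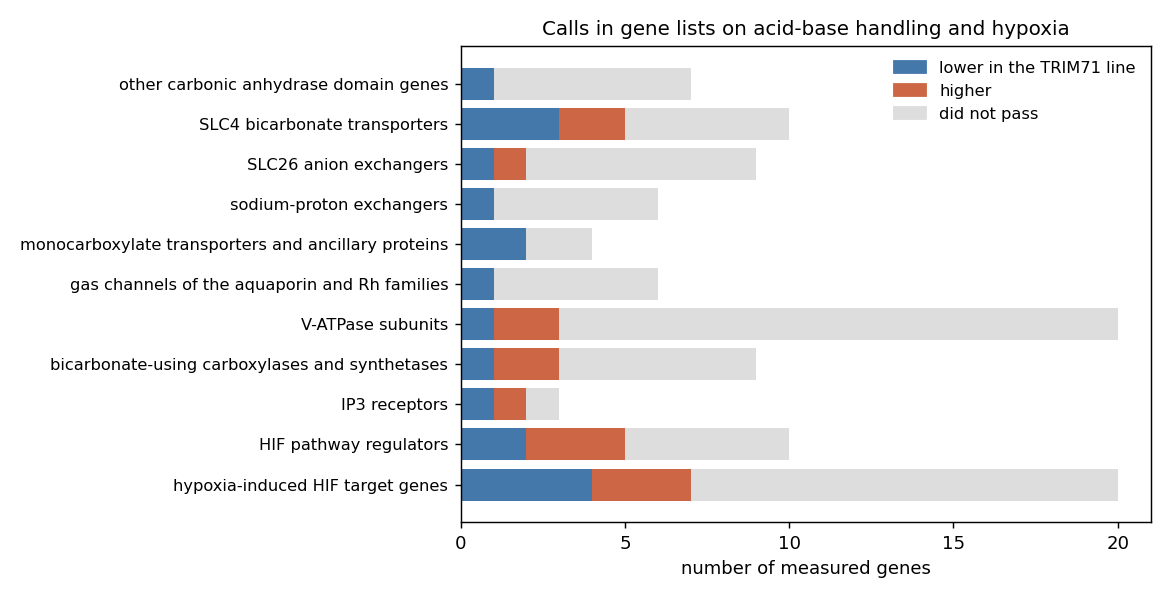
Number of measured genes in each list that were called lower (blue) or higher (orange) in the TRIM71 line or did not pass (grey). The SLC4 transporters have 3 lower and 2 higher of 10, and the hypoxia-induced genes 4 lower and 3 higher of 20.

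The receptor that CA8 binds, ITPR1, did not pass (8.49 to 8.66, log2 difference 0.17, adjusted p = 0.056), but was called in 6 of 15 alternative fits (adjusted p between 0.016 and 0.17 over all 15). It was named after its value was seen, for its link to CA8. Of its relatives, ITPR3 fell from 9.77 ± 0.04 to 7.505 ± 0.13 (n = 3 each; −2.27, adjusted p = 9.5e-05). ITPR2 rose by 0.23 (adjusted p = 0.023), a call lost without any 1 array (adjusted p between 0.054 and 0.084).

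CA9 and CA12 are known targets of the hypoxia-inducible factors. Of 10 measured HIF pathway regulators, 3 rose, 2 fell and 5 did not pass. EPAS1, which encodes HIF-2 alpha, rose from 7.90, 7.87 and 8.003 to 8.78, 8.90 and 8.83 (log2 difference 0.91, adjusted p = 5.0e-04). HIF1A rose by 0.28 (adjusted p = 0.027), but not without parental replicate 2 or 3 or TRIM71 replicate 1 or 2 (adjusted p up to 0.096), nor with arrays centred on their medians. Their partner ARNT fell by 0.36 (adjusted p = 0.0092). The oxygen sensor EGLN1 fell by 0.33 (adjusted p = 0.014), but not without TRIM71 replicate 1 or 2 (adjusted p up to 0.056).

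Of 20 hypoxia-induced genes, 3 rose, 4 fell and 13 did not pass, with a median log2 difference of −0.07. The glucose transporter SLC2A3 (1.10, adjusted p = 0.0020) and the histone demethylase KDM3A (0.50, adjusted p = 0.0026) rose. DDIT4, an mTOR inhibitor (−1.21, adjusted p = 5.7e-04), and STC2, a secreted glycoprotein (−1.09, adjusted p = 5.3e-04), fell. The list thus held calls in both directions beside the higher CA12.

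CA2 is also a marker of the intercalated cells of the collecting duct. Of 7 measured markers of those cells, 0 were called and 5 lay below the median of all probesets in both lines. Their summed linear level was 568 to 615 on the parental arrays and 519 to 566 on the TRIM71 arrays. The 6 markers of principal cells had 0 calls and a sum of 636 to 681 on the parental and 680 to 705 on the TRIM71 arrays. The 8 markers of proximal tubule cells had 3 calls. There LRP2, an endocytic receptor, rose by 1.40 (adjusted p = 1.8e-04), while SLC4A4 fell. CUBN, the partner of LRP2, had a dim probeset and rose by 0.34 (adjusted p = 0.017). The CUBN call was lost without parental replicate 2 or 3 or TRIM71 replicate 2 (adjusted p up to 0.066). The summed proximal tubule level was 1468 to 1543 in the parental line and 2051 to 2210 in the TRIM71 line. Such sums weigh bright probesets most: without LRP2 this sum was 989 to 1026 against 797 to 851, and the median log2 difference of the list was 0.05. Markers of erythroid cells (4 measured), leukocytes (5) and fibroblasts (6) had 0 calls, and 13 of these 15 lay below the median in both lines.

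Of 6 neuronal genes known from HEK293 cells, 4 fell, 0 rose and 2 did not pass, beside 12.2% of all genes called lower. Below the median of all probesets in both lines lay 3 of the 6, MAP2 among them. The summed level of the 6 was 7730 to 8067 on the parental arrays and 3517 to 3628 on the TRIM71 arrays. Without NEFL the sum was 2436 to 2561 against 1576 to 1616. NEFL, a neurofilament, was bright in the parental line at 12.41 ± 0.04 and stood at 10.96 ± 0.05 in the TRIM71 line (n = 3 each, adjusted p = 9.5e-05). MAP2 fell by 1.21, RBFOX3 by 1.07 and INA by 0.62 on the log2 scale (adjusted p between 2.4e-04 and 8.0e-04). The 4 called markers moved in the same direction as CA2, and their part in the CA2 difference was not tested. This list was chosen with earlier results of these arrays known, and CA2 for its fall, so nothing is read from the shared direction. In bulk RNA, fewer cells that express CA2 and less CA2 mRNA per cell cannot be told apart.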

How the data were processed

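Each array has a column of deposited log2 expression in the table. Per the submitters' processing notes, the authors used RMA and affy; versions and build are not given in the sources used here. RMA equalises the arrays, so a change in total mRNA is not seen, and 3 arrays per group limit the precision. Of 32321 probesets, 19158 carried 1 gene symbol, 1388 several and 11775 none, in the array annotation. Of the first, 19128 matched RefSeq by gene ID, and the others kept their annotation symbol. All probesets with 1 symbol together stood for 18404 genes, each by its brightest probeset. All probesets were fitted with limma 3.58.1 in R 4.3.3 (lmFit, eBayes, group as the term, no filter), and p-values were adjusted genome-wide by Benjamini-Hochberg. The fit was also run on simulated data as a check of the code, and a gene that was not called is not thereby shown to be unchanged. Members and lists were chosen with earlier results of these arrays known. Named are all members, other genes with the domain, the called genes ranked first by adjusted p in each list (up to 4, or 2 a direction if both directions had calls), the 5 neighbours on each side of CA2 and the 5 genes most like it; ITPR1 was added. Alternatives covered the variance prior, scaling, dim probesets, probeset choice, blocking, array weights, the threshold and each array left out. Proteins and sequences of chromosome 8 genes were not used here.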

Additional observations from a re-analysis of the deposited data

How the results depend on the processing

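None of the 9 measured members changed direction under any alternative run. For the 7 whose groups did not overlap, leaving out 1 array cannot change the direction. The variance prior, the threshold and the choice of probeset cannot move the difference of a member with a single probeset. The constant direction was therefore largely fixed beforehand. The differences of CA5A, CA6 and CA10, which were not called, had either sign when 1 array was left out. CA2 ranged from −1.88 to −1.81, CA8 from −0.47 to −0.37, CA12 from 0.36 to 0.40 and CA14 from 0.21 to 0.45 on the log2 scale. The number of members called was 3 in 13 of the 16 alternatives. It was 4 with 1 probeset per gene before the adjustment or with the mean of the probesets of a gene (CA4 was added). At an adjusted p under 0.01 it was 2 (CA8 was lost). Over all genes, 792 were higher and 1106 lower at that threshold. With the replicate block the counts were 1019 and 1371, and 3 members were still called. The block ended the calls of WWP1, ATP6V1B2, ATP6V0E2, CAD, ITPR2, HIF1A, EGLN1 and CUBN among the named genes (adjusted p between 0.051 and 0.10). The replicate numbers showed no clear pairing of the arrays. Deviations from the group means correlated at 0.07, −0.19 and 0.11 for numbers 1, 2 and 3, and 2 of 6 arrays correlated best with their own number. With 3 arrays per group, this cannot show that arrays of the same number were handled apart. Leaving out 1 array gave 979 to 1485 genes higher and 1336 to 1709 lower. Of the neighbours of CA2, 2 were called in the fit reported and 1 with arrays centred on their medians, with the replicate block, at the lower threshold and without any 1 array, where the call of WWP1 was lost. With the filter on dim probesets, with 1 probeset per gene and with the mean of the probesets 3 were called, RBIS among them. PTPRG passed in 5 alternatives. The cause of these changes was not tested. The calls over all related lists together numbered 23 to 41 under the alternatives. Array number, a single probeset per member and dim probesets limit what can be seen.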
